A study of Mus musculus with 4 samples.

Results

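The B-lineage genes described here are 9 of the 23906 gene symbols measured in LSK-SLAM cells of *BRE–GFP* mice. They are the receptor genes *Cd79a*, *Cd79b* and *Ms4a1*, the transcription factor genes *Ebf1* and *Pax5*, the surrogate light chain genes *Vpreb1* and *Igll1*, and the recombination genes *Rag1* and *Dntt*. They were chosen by measured values, because *Cd79a* and *Cd79b* were higher in GFP+ than in GFP- cells of both tissues, and the other 7 were added to set pro-B and pre-B genes apart from genes of mature B cells. All 9 were found in the files. The comparison of GFP+ with GFP- cells is therefore given as a description.

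B cells are made in steps. E-proteins and EBF1 start the programme, PAX5 commits cells to it, and RAG1 with RAG2 cuts the immunoglobulin loci while terminal transferase, the product of *Dntt*, adds bases at the joints. VpreB and lambda5, encoded by *Vpreb1* and *Igll1*, pair with the new heavy chain as a stand-in light chain in the pre-B cell receptor. Igalpha and Igbeta, encoded by *Cd79a* and *Cd79b*, carry the signal of both the pre-B and the mature receptor, and *Ms4a1* encodes CD20 of later B cells.

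There were 4 libraries, 1 each of GFP+ and GFP- cells from fetal liver (FL) at embryonic day 14 and from adult bone marrow (BM), and no condition had a replicate. All 4 groups carried the *BRE–GFP* transgene on a C57BL/6 background, in which a BMP responsive element drives GFP and so marks cells with active BMP signalling when they are isolated. LSK-SLAM cells were sorted as lineage-negative, Sca1+ and cKit+ cells that were CD150+ and CD48-, a profile that enriches for haematopoietic stem cells (HSCs). The lineage antibodies included anti-B220 and anti-CD3, and anti-CD11b was added for BM. How many embryos or mice made up a library is not given in the sources used here.

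Levels are FPKM, fragment counts scaled to transcript length and to library size, so they may be compared between genes. The summed FPKM of a library ranged from 541453 to 1000848, and 12372 to 17345 symbols were above 0. None of 12 housekeeping genes was at 0 in any library. However, 22 genes were listed at 0 in FL GFP+ cells although each reached an FPKM of 20 in all of the other 3 libraries, and 10 were so in BM GFP+ cells, so a gene at 0 is called listed at 0 here. The tissue labels were checked against 11 genes of fetal-stage blood cells, whose FPKM summed to 535 (GFP+) and 183 (GFP-) in the FL but to 7.24 and 7.01 in the BM. *H19*, a fetal imprinted transcript, had 44.7 and 42.1 in the FL and was at 0 and 0.037 in the BM. The GFP labels could not be checked in this way, since no row holds the transgene. *Bmpr2*, which encodes a BMP receptor, was lower in the libraries labelled GFP+, at 0.120 against 2.02 in the FL and 0.038 against 0.251 in the BM. Of these values only the 2.02 of FL GFP- cells is above the FPKM minimum used for comparisons here, so the BM pair would not enter one. The study reports *Bmpr* genes as expressed in GFP+ and not in GFP- cells. The order of *Bmpr2* is the reverse of that. Other *Bmpr* genes are not given here, so these low levels of a single gene cannot decide whether the GFP labels are right. Every direction, fold and share given between GFP+ and GFP- cells rests on the deposited labels, and with the labels exchanged within a tissue each fold would be inverted, for *Cd79a* to 0.107 in the FL and 0.249 in the BM. The BM GFP+ library stood apart, with the highest summed levels of neutrophil and erythroid markers among the 4 and with *Procr*, a marker of HSCs, listed at 0.

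The stretch of 250 bases before the gene start was available for 7 of the 9 genes, in 8 windows (*Ebf1* has a pair of starts), from RefSeq on GRCm38.p6. The 5 windows shown are those of *Cd79a*, the gene that led the choice, of the 3 other genes with a CAGGTG E-box, and of *Pax5*, whose difference between BM fractions was the largest of the 9. Each runs 5′ to 3′ on the strand of its gene, and capitals mark matches, on either strand, to the motifs searched.
Cd79a (chr7:24897247-24897496, plus strand): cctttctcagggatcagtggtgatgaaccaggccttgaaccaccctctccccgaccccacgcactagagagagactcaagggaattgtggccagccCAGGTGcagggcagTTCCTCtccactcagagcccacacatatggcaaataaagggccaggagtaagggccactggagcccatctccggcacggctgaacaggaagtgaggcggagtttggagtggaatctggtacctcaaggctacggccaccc
Vpreb1 (chr16:16869256-16869505, minus strand): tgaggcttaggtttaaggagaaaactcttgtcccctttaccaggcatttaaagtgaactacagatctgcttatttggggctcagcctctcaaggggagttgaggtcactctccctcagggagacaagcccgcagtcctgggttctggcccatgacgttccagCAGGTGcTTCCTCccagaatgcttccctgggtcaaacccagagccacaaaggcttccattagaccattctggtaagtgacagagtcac
Igll1 (chr16:16863986-16864235, minus strand): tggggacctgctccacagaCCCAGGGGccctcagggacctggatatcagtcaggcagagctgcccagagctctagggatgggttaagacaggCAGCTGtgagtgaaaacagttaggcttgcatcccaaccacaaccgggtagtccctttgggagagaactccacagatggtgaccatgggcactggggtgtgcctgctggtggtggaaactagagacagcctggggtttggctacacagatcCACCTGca
Rag1 (chr2:101649533-101649782, minus strand): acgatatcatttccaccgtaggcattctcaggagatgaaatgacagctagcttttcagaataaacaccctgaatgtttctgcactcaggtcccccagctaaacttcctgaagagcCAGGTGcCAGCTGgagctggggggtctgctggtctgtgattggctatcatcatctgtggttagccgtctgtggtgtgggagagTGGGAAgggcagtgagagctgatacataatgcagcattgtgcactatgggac
Pax5 (chr4:44710695-44710944, minus strand): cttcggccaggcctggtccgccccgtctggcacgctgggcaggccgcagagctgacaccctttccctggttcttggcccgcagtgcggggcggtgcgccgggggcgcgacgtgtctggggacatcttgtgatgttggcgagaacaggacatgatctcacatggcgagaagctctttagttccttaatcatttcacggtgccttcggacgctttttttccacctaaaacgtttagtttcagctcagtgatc

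The motifs were CAGGTG and CAGCTG (E-boxes, the kind of site that E-proteins bind), CCCNNGGG (core of the EBF1 site), GAGGAA (PU.1-type ETS site), TGGGAA (Ikaros), ATTTGCAT (octamer) and GGCGCC (the Smad-bound element of BMP target genes), and no match overlapped another. CAGGTG was in 4 of the 8 windows, those of *Cd79a*, *Vpreb1*, *Igll1* and *Rag1*, against 17.2% of 32851 promoter windows of the same length. In *Cd79a* it began 154 bases before the start, with GAGGAA at 140, and in *Vpreb1* the same motifs lay at 88 and 81. GAGGAA was in 3 windows (23.3% of all) and TGGGAA in 2 (21.6%). CAGCTG was in those of *Rag1* and *Igll1* (13% of all), and CCCNNGGG in that of *Igll1* alone (11.8%). *Pax5*, *Dntt* and the first start of *Ebf1* had none of these letters, and neither the octamer (1.6% of all) nor GGCGCC (9.59%) was in any of the 8. These are exact matches of letters only, so a window without a match may still hold a site of changed letters. The *Cd79a* window holds CTCAAGGG, a single letter away from CCCNNGGG, which was not counted. No share of all windows is given for such near matches. No binding was measured.

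In adult BM the GFP+ library had the higher level of 7 of the 9 genes, past 2-fold for 5 of them. Of all 12385 genes that reached an FPKM of 1 in either BM library, 21.1% were more than 2-fold higher in GFP+ and 19.6% in GFP- cells, or 13.5% and 27.4% when the libraries were brought to equal FPKM totals. Because these are bulk samples, more cells of a type and more RNA per cell cannot be told apart. Among the 9 genes, with few to each role, the differences were ordered by role. The transcription factor genes differed most, the receptor genes by 3.38-fold to 4.28-fold, the surrogate light chain genes by less than 2-fold, and *Dntt* and *Rag1* were lower in GFP+ cells. This order held only in part in the wider list given below. There the median difference in log2(FPKM + 1) was 1.82 for receptor and coreceptor genes, above the 1.45 of transcription factor genes. The pre-B receptor and V(D)J recombination genes again came after these, at 0.67 and -0.02.

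*Pax5* (chromosome 4, 44524748 to 44710694 on GRCm38.p6), the commitment factor, measured 71.6 FPKM in the GFP+ library and 3.32 in the GFP- library of the BM, a 21.5-fold difference. For *Ebf1* (chromosome 11, 44618100 to 45008096), which acts upstream of *Pax5*, the levels were 28.7 and 3.15, a 9.12-fold difference. Both genes were listed at 0 in both FL libraries. On the log2(FPKM + 1) scale these were differences of 4.07 and 2.84, above those of 99.6% and 98.9% of the genes tested.

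*Cd79a* (chromosome 7, 24897497 to 24901858) measured 1063 FPKM in the GFP+ library and 265 in the GFP- library of the BM, a 4.02-fold difference. *Cd79b* (chromosome 11, 106311341 to 106314562) had 1431 and 423, a 3.38-fold difference. *Ms4a1* (chromosome 19, 11249679 to 11266149) had 403 and 94.2, a 4.28-fold difference. The receptor genes thus stood among the most abundant transcripts, with *Cd79b* the 115th and *Cd79a* the 139th highest gene in the GFP+ library, and the 260th and 444th in the GFP- library. *Ms4a1* was the 361st and the 1316th. A place within a library does not depend on how libraries are scaled to each other.

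*Igll1* (chromosome 16, 16860671 to 16863985) measured 106 FPKM in the GFP+ library and 59.3 in the GFP- library of the BM, a 1.79-fold difference. Its neighbour *Vpreb1* (16868401 to 16869255) had 30.6 and 21.2, a 1.44-fold difference. Neither passed 2-fold, and their differences of 0.83 and 0.51 on the log2(FPKM + 1) scale exceeded those of 78.3% and 67.1% of the genes tested. *Vpreb1* has a near-identical copy, *Vpreb2*, at 5.01 and 5.16, and how reads were divided between them is uncertain.

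*Dntt* (chromosome 19, 41029275 to 41059525) had the opposite order, with an FPKM of 33.3 in the GFP+ library and 52.5 in the GFP- library of the BM, 1.58-fold higher in GFP- cells. It fell short of 2-fold as deposited and with equal upper quartiles, at 0.591 times the GFP- level under the latter. With equal FPKM totals it was past 2-fold, at 0.462 times the GFP- level, as were 27.4% of all genes tested. *Rag1* (chromosome 2, 101638252 to 101649532) was near the bottom of both BM libraries at 0.059 and 0.224, under the FPKM of 1 needed to enter the count. *Rag2*, its partner, had 2.51 and 2.57. The recombination enzymes thus did not share the excess of the receptor genes in the GFP+ library.

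**Figure D1:**
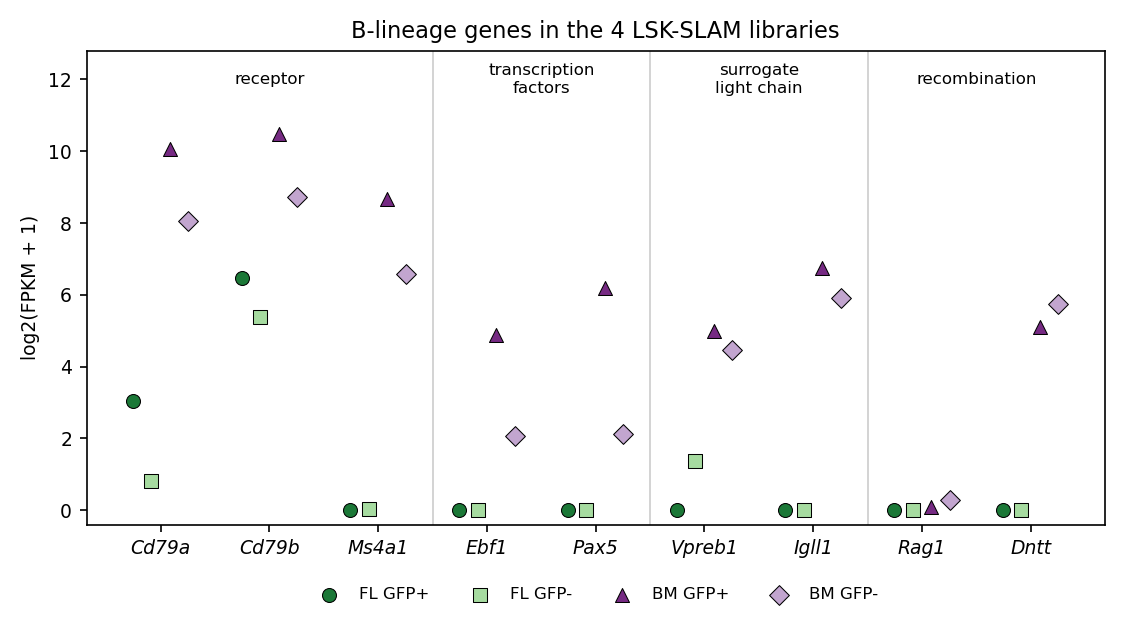
Level of each of the 9 B-lineage genes, as log2(FPKM + 1) on the vertical axis, in the 4 libraries (1 point per library, no replicates), ordered by role. Both BM points lie above both FL points for every gene, and within the BM the GFP+ point is above the GFP- point for all but *Rag1* and *Dntt*.

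**Figure D2:**
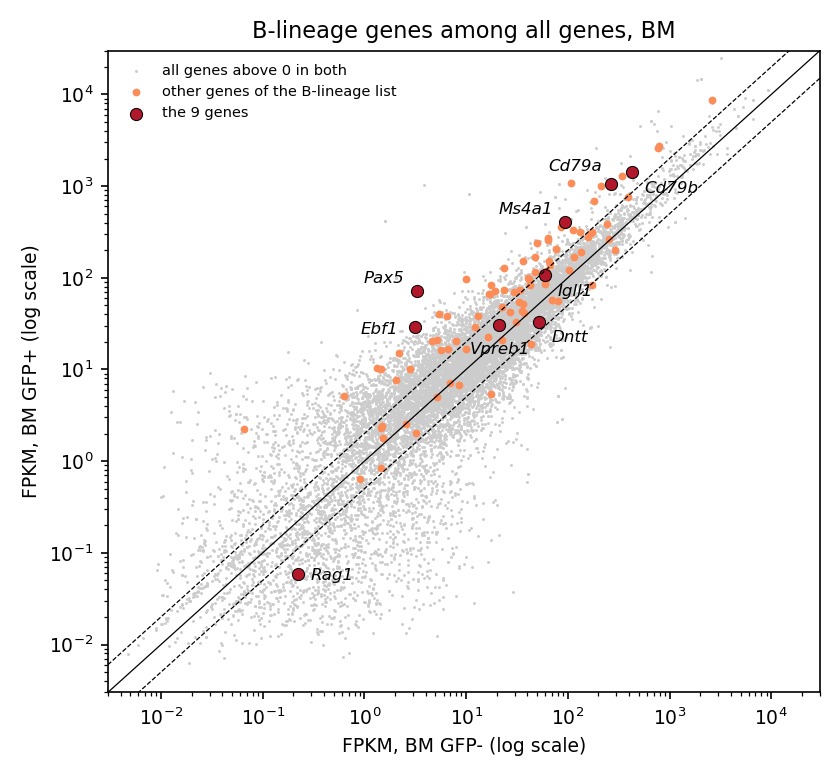
FPKM in BM GFP- cells (horizontal, log scale) against BM GFP+ cells (vertical, log scale) for the 13032 genes above 0 in both libraries. The 9 genes are in dark red, the other genes of the wider B-lineage list in orange, the solid line marks equal levels and the dashed lines 2-fold. Of the 9, *Pax5* and *Ebf1* lie farthest above the upper dashed line, and *Dntt* lies between the dashed lines on the GFP- side.

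Ratios between genes of one library carry no scaling between libraries. *Cd79b* had 1.35 times the FPKM of *Cd79a* in the GFP+ library and 1.60 times in the GFP- library of the BM, and *Ms4a1* was at 38.0% and 35.6% of the *Cd79a* level. The receptor genes therefore kept nearly the same proportions in both BM fractions.

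The other genes did not keep their proportion to *Cd79a*. *Pax5* was at 6.73% of the *Cd79a* level in the GFP+ library and 1.26% in the GFP- library of the BM, 5.36-fold more, and *Ebf1* at 2.70% and 1.19%, 2.27-fold more. *Igll1* went the other way, with 10.0% and 22.4%, as did *Vpreb1* with 2.88% and 8.02%. *Dntt* was at 3.13% and 19.8%, a 6.33-fold greater proportion in GFP- cells. *Igll1* had 3.48 and 2.79 times the FPKM of *Vpreb1*, so that the surrogate light chain genes kept closer to each other than to the receptor genes.

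As a share of the summed FPKM of the 9 genes, the 3 receptor genes made up 91.5% in the GFP+ library and 84.8% in the GFP- library of the BM. The pro-B and pre-B genes *Vpreb1*, *Igll1*, *Rag1* and *Dntt* made up 5.37% and 14.5%, and *Ebf1* with *Pax5* 3.17% and 0.702%. The whole sum was 3168 FPKM in the GFP+ library and 922 in the GFP- library of the BM. The GFP+ library thus had the larger sum of the 9 genes. A smaller part of it came from *Vpreb1*, *Igll1*, *Rag1* and *Dntt*, although these summed to 170 FPKM against 133 in the GFP- library. *Ebf1* and *Pax5*, which start the programme and commit cells to it, made up a larger part in the GFP+ library. The shares therefore do not divide early from later genes as a whole.

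**Figure D3:**
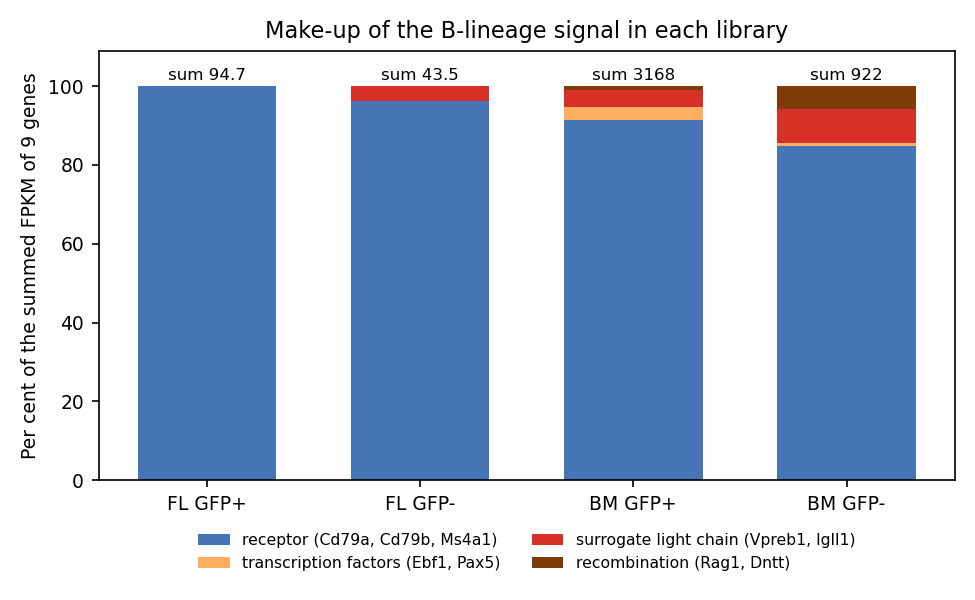
Share of the summed FPKM of the 9 genes (vertical, per cent, from 0) taken by each role in each library, with the sum in FPKM printed above each bar. The surrogate light chain and recombination genes (red and brown) take 5.37% in the GFP+ library and 14.5% in the GFP- library of the BM. The receptor genes take 100% in the GFP+ library and 96.3% in the GFP- library of the FL.

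In the FL the summed level of the 9 genes was nearly that of *Cd79b* alone. *Cd79b* had an FPKM of 87.6 in the GFP+ library and 41.1 in the GFP- library of the FL, a 2.13-fold difference, and was higher than 88.7% and 83.4% of the genes above 0 in those libraries. *Cd79a* had 7.16 and 0.766, a 9.35-fold difference. *Vpreb1* was listed at 0 in GFP+ and at 1.60 in GFP- cells, and *Ms4a1* at 0 and 0.030. *Ebf1*, *Pax5*, *Igll1*, *Rag1* and *Dntt* were listed at 0 in both FL libraries. Hepatocyte markers were also higher in the FL GFP+ library, where 5 such genes summed to an FPKM of 327 against 23.7 in GFP- cells and 4 of the 5 were past 2-fold, with *Alb*, the albumin gene, at 139.5 and 9.49. None of the 5 was at 0 in either FL library, and their part in the FL levels was not tested.

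Of the 3 genes that reached an FPKM of 1 in either FL library, *Cd79a* and *Cd79b* were past 2-fold in GFP+ and *Vpreb1* in GFP- cells. Among 12134 genes, 17.9% were past 2-fold in GFP+ and 26.8% in GFP- cells (13.2% and 30.0% with equal totals). The 2.13-fold difference of *Cd79b* lay close to the threshold and was 1.79-fold with equal FPKM totals and 1.82-fold with equal upper quartiles, and that of *Cd79a* was 7.83-fold with equal totals. In place of the near-equal proportions in the BM, *Cd79b* had 12.2 times the FPKM of *Cd79a* in FL GFP+ and 53.6 times in FL GFP- cells. The *Cd79a* level of 0.766 in FL GFP- cells, under an FPKM of 1, underlies the last ratio and the FL folds of *Cd79a*.

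Between the tissues, every one of the 9 genes was higher in the BM library in both fractions. *Cd79a* was 148-fold higher in BM than FL GFP+ cells and 346-fold higher in BM than FL GFP- cells, where its FPKM was 0.766. *Cd79b* was 16.3-fold and 10.3-fold higher. In GFP- cells *Vpreb1* was 13.2-fold higher in the BM. These differences of *Cd79a* exceeded, on the log2(FPKM + 1) scale, those of 99.2% of the genes tested in GFP+ and 99.7% in GFP- cells.

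Past 2-fold in the BM were 8 genes in GFP+ and 8 in GFP- cells, all but *Rag1*, and none was past 2-fold in the FL. Of all genes, 33.6% were past 2-fold in the BM and 25.1% in the FL for GFP+ cells (12120 tested), and 18.6% and 19.3% for GFP- cells (12703 tested). With equal totals these became 26.1% and 37.4%, and 13.4% and 29.0%. Only *Cd79a* and *Cd79b* in GFP+ cells, and *Cd79b* and *Vpreb1* in GFP- cells, reached an FPKM of 1 in both tissues. The others entered the count through their BM level and had to differ.

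A wider list of 96 B-lineage genes, the 9 included, was counted in the same way. Many of its genes serve other blood cells too, and 45 of the 96 reached an FPKM of 1 in both FL libraries. In the BM, 52 of the 93 genes tested (55.9%) were past 2-fold in GFP+ and 3 (3.23%) in GFP- cells. The shares of all genes there were 21.1% and 19.6%. In the FL, 8 of 56 (14.3%) were past 2-fold in GFP+ and 11 (19.6%) in GFP- cells, both under the shares of all genes, and 5 and 13 were with either scaling. The median fold on the log2 scale was 1.22 over the 95 list genes above 0 in both BM libraries, against 0.14 over all 13032 such genes. In the FL it was 0.17 over 61 list genes, against 0.12 over 11836.

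By role, the BM excess of the GFP+ library was found in the receptor and coreceptor genes, of which 17 of 20 were past 2-fold there and none in GFP- cells (11 and none with equal totals). For all genes the shares in the BM were 21.1% and 19.6%, or 13.5% and 27.4% with equal totals. *Cd40*, a costimulatory receptor, had an FPKM of 97.2 in the GFP+ library and 10.0 in the GFP- library of the BM. *Fcer2a* (CD23) had 256 and 63.3, and *Cr2* (CD21), both genes of mature B cells, had 10.2 and 1.47. *Cd81*, a widely expressed tetraspanin, had 203 and 290. Of the 17 transcription factor genes tested, 13 were past 2-fold in GFP+ and none in GFP- cells (10 and none with equal totals), among them *Pou2af1*, a B-cell coactivator, at 83.8 and 17.6, and *Spib* at 238 and 49.3.

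Among 18 genes of B-cell receptor signalling, 8 were past 2-fold in GFP+ and 1 in GFP- cells (7 and 1 with equal totals). Beside these stand the shares of all genes, 21.1% and 19.6%, or 13.5% and 27.4% with equal totals. *Blnk*, the adaptor of the receptor, had an FPKM of 168 and 47.7, and *Blk*, a kinase of B cells, 66.1 and 16.9. *Dapp1* was the gene past 2-fold in GFP- cells, at 83.7 and 173. Of the 10 MHC class II genes, with which B cells and other cells present antigen, 8 were past 2-fold in GFP+ cells, and 6 with equal totals. *Cd74*, the invariant chain, reached 8726 and 2638. *Igj*, the J chain of secreted immunoglobulin, had 1074 and 108.

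For the pre-B receptor, early lymphoid receptor and V(D)J recombination lists the counts were too small to be set apart from the 21.1% (GFP+) and 19.6% (GFP-) of all genes. Of the 4 pre-B receptor genes *Vpreb3* was past 2-fold in GFP+ cells, at 333 and 112. Of 9 early lymphoid receptor genes *Il7r*, the receptor of the cytokine that pro-B cells need, was past 2-fold in GFP+ cells at 20.6 and 4.64, and *Jak3* in GFP- cells at 19.1 and 43.8. Of the 10 V(D)J recombination genes tested, none was past 2-fold in GFP+ and 1 in GFP- cells, or 4 with equal totals, under which 27.4% of all genes were. As deposited this was *Xrcc4*, a DNA end-joining factor, at 5.46 and 17.5. *Tcf3*, which encodes the E-protein E2A, was 2.14-fold higher in GFP+ cells, a difference under 2-fold with either scaling, and *Ikzf1*, the Ikaros gene, 1.09-fold.

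Outside the 9 genes, 52 genes of the wider list were tested in both tissues. Of these, 4 (7.69%) were past 2-fold in GFP+ cells of both, *Irf8*, *Fcgr2b* and *Cd37* among them. No gene of the list was in GFP- cells of both. Of all 10910 genes tested in both tissues, 3.45% were past 2-fold in GFP+ cells of both and 6.48% in GFP- cells of both. The FPKM of *Irf8*, a factor of myeloid and B cells, was 15.1 (GFP+) and 4.79 (GFP-) for the FL, and 320.0 and 132 for the BM. *Fcgr2b*, the inhibitory Fc receptor, had 7.57, 1.67, 99.2 and 40.5 in the same order, and *Cd37*, a leukocyte tetraspanin, 98.4, 42.1, 693 and 179.6. These genes are also expressed by other blood cells. With equal totals *Irf8*, *Fcgr2b* and *Cd37* were no longer past 2-fold in both tissues, and with equal upper quartiles *Irf8* and *Fcgr2b* were.

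Between tissues, 83 further genes of the list were tested in both fractions. Past 2-fold in both were 46 (55.4%) in the BM and 3 (3.61%) in the FL, or 43 and 4 with equal totals. Of all 11214 genes tested in both fractions, 11.9% and 7.7% were. Of the 46, only 10 reached an FPKM of 1 in both FL libraries and 10 were listed at 0 in both, and those that entered the count through their BM level had to differ. The largest differences were of MHC class II genes, with *H2-Aa* at 0.179 (GFP+) and 0.074 (GFP-) in the FL against 2720.5 and 794 in the BM. *Ly6d*, a surface marker of B-biased lymphoid progenitors, and *Cd72*, a B-cell coreceptor, were listed at 0 in both FL libraries, and had 1016 and 210.1, and 139 and 67.4, in the BM. The genes past 2-fold in the FL were *Jak3*, *Cd93* and *Prkdc*, none of them particular to B cells.

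Markers of other cell types were also higher in the BM GFP+ library, beside the B-lineage genes. The 7 neutrophil genes had a summed FPKM of 58950 in the GFP+ library and 14376 in the GFP- library of the BM against 354 and 154 in the FL, and 5 of 7 were past 2-fold in BM GFP+ cells. For 6 erythroid genes the sums were 20162 and 2794 (FL 980 and 894), and 4 of 6 were past 2-fold. The 8 T cell genes summed to 238 and 110 (FL 13.8 and 24.2, 6 of 8 past 2-fold), and *Cd3e* was at 23.2 and 5.63 in the BM and listed at 0 in the FL. The 8 monocyte and macrophage genes summed to 5918 and 1744 (6 of 8), the 6 NK cell genes to 482 and 339 (3 of 6), and the 6 plasmacytoid dendritic cell genes to 488 and 214 (4 of 6). None of these markers was at 0 in either BM library. The 5 megakaryocyte genes, at 389 and 460, had 1 past 2-fold. Of all genes tested, 21.1% were past 2-fold in BM GFP+ cells, or 13.5% with equal totals. With equal totals the T cell count became 5, the monocyte and macrophage count 5 and the megakaryocyte count 0, with 1 past 2-fold in GFP- cells. The neutrophil, erythroid, NK cell and plasmacytoid dendritic cell counts stayed the same.

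Of 10 stem cell and sorting genes, 8 were past 2-fold lower in BM GFP+ than in BM GFP- cells, as were 19.6% of all genes tested. The others, *Ly6a* and *Cd48*, were higher. *Procr*, a marker of HSCs, was listed at 0 in BM GFP+ cells and had an FPKM of 60.8 in BM GFP- cells, and *Kit* had 22.2 and 76.6. *Ly6a*, which encodes Sca1, for which the sort selected, had 286 and 146 in the BM and 19.7 and 46.3 in the FL. *Cd48*, whose product the sort selected against, had 267 and 126 in the BM and 51.4 and 17.4 in the FL, and in the BM it was past 2-fold as deposited but with neither scaling. The part of other cell types in the B-lineage levels was not tested.

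**Figure D4:**
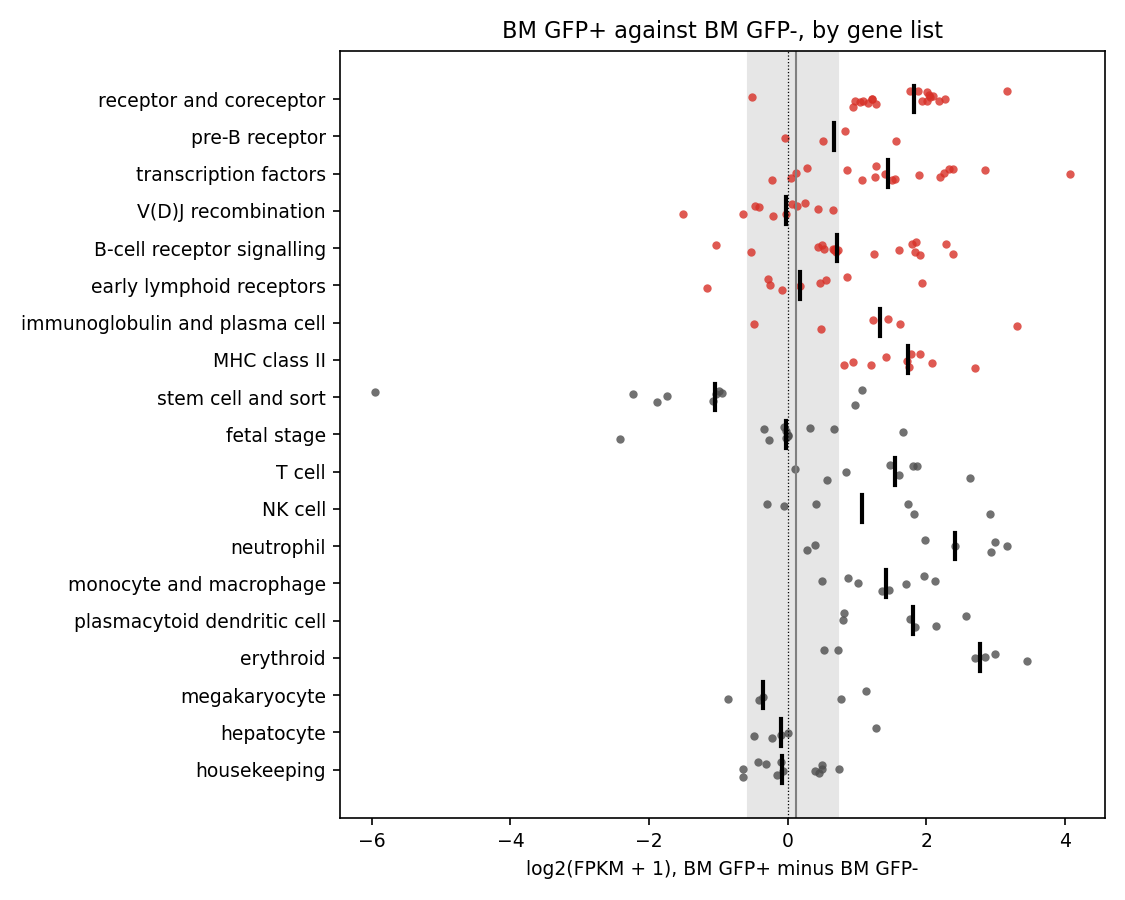
Difference in log2(FPKM + 1) between BM GFP+ and BM GFP- cells (horizontal) for each gene of the B-lineage lists (red) and of the marker lists (grey), with the median of each list as a black bar. The grey band spans the quartiles of the 12385 genes tested, from -0.57 to 0.72 about a median of 0.12. The receptor, transcription factor and MHC class II lists have medians of 1.82, 1.45 and 1.74, V(D)J recombination -0.02, neutrophil 2.41, erythroid 2.77 and stem cell -1.06.

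The genes whose pattern over the 4 libraries was nearest to that of *Cd79a* and *Cd79b* were sought by the Euclidean distance between profiles of log2(FPKM + 1), each centred on its own mean, among 13254 genes. Among the 5 nearest to *Cd79a* were *Ly6c2* (1.17), *Cd52* (1.23), *Elane* (1.24) and *Fos* (1.46). Nearest to *Cd79b* were *Btg1* (0.315), *Grk6* (0.548), *Fcgr2b* (0.554), *Ncf4* (0.654) and *S100a4* (0.706). Both lists hold genes of myeloid cells, such as *Elane*, the neutrophil elastase, and *Ncf4*, an oxidase subunit. With Pearson's r in place of the distance, 0 of the 5 names were shared for either gene.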

How the data were processed

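RNA of LSK-SLAM cells was prepared by the SMARTer protocol and sequenced on a HiSeq2000. Per gene symbol the authors deposited FPKM, obtained with Bowtie, TopHat and Cufflinks 2.2.1, corrected with Cuffquant for fragment bias and multiple mapping, and scaled across the 4 libraries with Cuffnorm. The study's methods name NCBI37/mm9 and the submitters' processing notes mm10. Coordinates and promoters are RefSeq's on GRCm38.p6, joined by symbol. The files used hold FPKM and no counts, so the number of reads behind a value is unknown and no interval is given.

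Samples were grouped by their labels. The order of libraries in the study's own plots may differ from the labels, which were followed here. For *Ikzf1*, *Tcf3* and *Flt3* the study reports comparable levels in the FL fractions and higher ones in BM GFP+ cells. As labelled, *Ikzf1* had 9.81 (GFP+) and 29.3 (GFP-) in the FL, *Flt3* 7.29 and 31.0, and *Tcf3* 29.8 and 36.6. In the BM *Tcf3* was 2.14-fold higher in the GFP+ library, but *Ikzf1* and *Flt3* only 1.09-fold and 1.13-fold. The log2(FPKM + 1) differences of *Ikzf1* and *Flt3*, 0.12 and 0.18, lay near the median of 0.12 of all genes tested. Equal totals moved the median BM log2 fold of all genes by -0.46, further than either difference. With 1 library a group, no test was run and no difference has a replicate check. A gene entered a comparison if it reached an FPKM of 1 in either of the 2 libraries, and was past 2-fold, the study's threshold, when its FPKM was more than 2 times the other. Log2 differences used a pseudocount of 1, which understates changes of low genes, and no fold is given against a library at 0.

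The 9 genes, lists and rules were chosen with earlier results of these data known. Named are the 9 genes, genes of the wider list past 2-fold the same way in both tissues or both fractions, and the 5 nearest in pattern to *Cd79a* and to *Cd79b*. Other list genes were named after their values were seen. Immunoglobulin constant genes are not analysed here. A further gene that the rule names is not reported here. Alternatives were a pseudocount of 0.1, equal FPKM totals or upper quartiles, 1.5-fold and 4-fold thresholds, and other FPKM minimums. The counting was tested on simulated data, with Python 3.11.15, numpy 2.4.6, pandas 2.3.3 and matplotlib 3.10.9.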

Additional observations from a re-analysis of the deposited data

How the results depend on the processing

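The 5 genes past 2-fold in BM GFP+ cells numbered 4 to 6 under all alternatives, and those past 2-fold in the BM over the FL numbered 8 under both scalings, in GFP+ and in GFP- cells. Requiring an FPKM of at least 1 in both libraries left 2 in each fraction. In the FL, the 2 genes past 2-fold in GFP+ cells became 1 with equal totals, equal upper quartiles, a 4-fold threshold or the minimum in both libraries, and the 1 in GFP- cells became 2 with no minimum and 0 with a minimum of 1 in both libraries or of 5 in 1. The 0 in BM GFP- cells became 1 with equal totals, 1.5-fold or no minimum. For the wider list in the FL, the 8 in GFP+ cells became 5 with either scaling or the minimum in both libraries and 4 at 4-fold, and the 11 in GFP- cells became 28 with no minimum, 3 with the minimum in both libraries and 5 with a minimum of 5. In the BM, the 52 in GFP+ cells became 39 with equal totals and 23 at 4-fold, and the 3 in GFP- cells became 6 with equal totals or 1.5-fold, 0 at 4-fold and 5 with no minimum.

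Equal totals moved the median log2 fold of all genes by -0.26 in the FL and -0.46 in the BM between fractions, and by -0.63 in GFP+ and -0.43 in GFP- cells between tissues. None of the 17 log2 differences of the 9 genes changed direction under a pseudocount of 0.1 or either scaling. A pseudocount of 0.1 took the FL log2 difference of *Cd79a* from 2.21 to 3.07. Of the 5 genes nearest to *Cd79a*, 3 were also nearest with a pseudocount of 0.1 and 0 with Pearson's r, and of those nearest to *Cd79b*, 1 and 0. No library could be left out, since each group had 1, and no paired analysis was possible because each group had 1 library, so the BM values were not obtained without the BM GFP+ library.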
